A study of Mus musculus with 18 samples.

Results

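Caloric restriction (CR) was set against ad libitum feeding (AL) in livers of SIRT1+/- mice, which carry 1 functional copy of Sirt1, using 5 of the 18 libraries of the series. The 5 were chosen by their labels alone and comprise 3 CR SIRT1+/- and 2 AL SIRT1+/- mice, with 1 liver and 1 Illumina MouseRef-8 v2 beadchip per mouse. CR SIRT1+/- mice received 40% fewer calories from 2 to 5 months of age and were 13 to 16 months old when the liver was taken, while AL SIRT1+/- mice of the same ages ate freely. Both groups are labelled male C57BL/6J, carry a germline SIRT1 deletion on 1 allele, and were singly caged per the supplement, which describes both sexes. CR mice ate a fortified version of the chow given to AL mice, so restriction and chow formula cannot be told apart. The other 13 libraries come from 3 CR SIRT1+/+, 3 CR SIRT1-/-, 3 AL SIRT1+/+ and 4 AL SIRT1-/- livers. They entered the filter on detected probes, the choice of probe per gene, the common scale, the shared estimate of spread and the comparisons between genotypes.

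SIRT1 is an NAD-dependent deacetylase whose targets include transcription factors and coactivators of liver metabolism. Restriction of food is known to lower circulating IGF1 and insulin, to reduce the synthesis of fat and to favour glucose production and fat use in the liver. Mouse liver also differs strongly between the sexes, because males release growth hormone in pulses and females more continuously, and sets of male-biased and female-biased genes follow these patterns.

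Values below are signals scaled within each array and put on a log2 scale, with 0 at the array's mean over probes, and a difference is the CR SIRT1+/- mean minus the AL SIRT1+/- mean. Genes were tested with limma in 1 fit of all 6 groups, with p-values adjusted by Benjamini-Hochberg over 8950 genes. From 10768 to 11134 of 25697 probes were detected in the CR SIRT1+/- libraries, against 10726 and 10834 in the AL SIRT1+/- libraries, and the number of arrays limits the precision. The highest scaled value of an array lay between 7.37 and 8.91, so that the brightest probes partly read the top of their array. Liver transcripts were bright in all 5 libraries: Ttr, the carrier of thyroid hormone and retinol-binding protein, was at 7.41, 6.68 and 8.49 in CR SIRT1+/- livers, against 8.33 and 8.49 in AL SIRT1+/- livers. The single probe kept for Alb, the albumin gene, was dim and was not detected in either AL SIRT1+/- library. No defining marker of skeletal muscle was measured. Of 10 markers of macrophages, 8 had a difference below 0, with a median of -0.34, and C1qb alone was lower at an unadjusted p below 0.05. Their diets did not overlap for 4 lower markers (12.6% of all genes) and 1 higher marker (18%). The summed raw signal of the 10 was 2765 to 3732 in CR SIRT1+/- livers, against 3077 to 3372 in AL SIRT1+/- livers. Raw sums follow array brightness, with array medians of 57.4 to 80.1 on CR, against 63.4 and 59.4 on AL. Sirt1 itself was at 1.37, 1.14 and 1.18 in CR SIRT1+/- livers, against 0.86 and 0.96 in AL SIRT1+/- livers, a difference of 0.32 (SE 0.23, limma adjusted p = 0.75). Where its probe lies relative to the deleted exons was not determined, so this level checks no label.

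Some libraries did not sit as their labels say. CR SIRT1+/- replicate 2 had a scaled value of 2.11 for Xist, the RNA of the inactive X chromosome of females, against -1.18 to -0.82 in the other 4 SIRT1+/- libraries. Its value for the Y-linked Eif2s3y was -1.39, against 1.71 to 2.27 in the others, although every mouse is labelled male. The label of AL SIRT1-/- replicate 1 is also in doubt, because few of the values listed for SIRT1+/- livers in the study's supplement could be recomputed with the labels as given and nearly all could with this library counted as AL SIRT1+/-. The labels were kept, so every SIRT1+/- value below depends on them. Of 96 genes checked, 87 had an unadjusted p under 0.05 in SIRT1+/- livers. Without CR SIRT1+/- replicate 2, 24 of the 87 no longer did and 7 differences moved by over 1.5 times. With AL SIRT1-/- replicate 1, the doubtful library, regrouped as AL SIRT1+/-, the counts were 27 and 20. None of the 87 changed sign in either case. The genes lost or moved are named with their values, and C1qb was among those lost both ways. All CR columns precede all AL columns in the deposited table, so that a batch in that order and diet cannot be told apart.

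Which transcripts differed between CR and AL SIRT1+/- livers was examined first. Elovl3 and Sbspon were lower on CR, and they were the only genes among 8950 to pass the test (0 higher and 2 lower at a limma adjusted p under 0.05, 0.0223% of genes). Elovl3 encodes a fatty acid elongase of the endoplasmic reticulum, and Sbspon a secreted protein with somatomedin B and thrombospondin domains. Male-biased transcripts such as Cyp4a12a, major urinary proteins such as Mup20 and the tubulin Tubb2b were among the other large negative differences, while the largest positive differences among genes with no overlap of libraries and a small unadjusted p belonged to Bdh2, Cyp4a14, Psmd8 and Slc39a4. Genes with an unadjusted p under 0.05 are called nominally higher or lower below, and there were 746 of them (8.34%), 455 higher (5.08%) and 291 lower (3.25%) on CR. Leaving out AL SIRT1+/- replicate 1 gave 215 and 137, leaving out CR SIRT1+/- replicate 2 gave 251 and 193, and 302 genes were higher when AL SIRT1+/- replicate 2 was left out. With quantile normalization the split was 411 higher and 416 lower, and with neqc 409 and 424. The median over all genes was 0.028, and 161 genes differed by at least 1 on the log2 scale.

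Elovl3 had scaled values of 0.73, -1.45 and -0.91 in CR SIRT1+/- livers, against 2.63 and 2.47 in AL SIRT1+/- livers. Both AL values lay far above all 3 CR values, of which only the highest was detected. The means were -0.54 ± 1.14 (SD, n = 3) on CR and 2.55 ± 0.11 (SD, n = 2) on AL, so Elovl3 fell by 3.09 (SE 0.43, limma adjusted p = 0.0113). Sbspon had values of -0.19, -0.55 and -0.64 in CR SIRT1+/- livers, against 1.22 and 1.75 in AL SIRT1+/- livers, again without overlap and with 2 of 3 CR libraries detected. It fell by 1.95 (SE 0.25, limma adjusted p = 0.0101), with means of -0.46 ± 0.24 (SD, n = 3) on CR and 1.49 ± 0.37 (SD, n = 2) on AL. Without CR SIRT1+/- replicate 2, Elovl3 differed by -2.64 and Sbspon by -1.91 (limma adjusted p = 0.026 for both). With the doubtful library regrouped, the differences were -1.78 and -1.46, and neither passed (limma adjusted p = 0.542 and 0.385). Fitting only libraries with a Y-linked transcript gave -2.64 for Elovl3 and -1.91 for Sbspon, and neither passed there. Leaving out CR SIRT1+/- replicate 3 gave a limma adjusted p of 0.0502 for both genes, and leaving out AL SIRT1+/- replicate 2 gave 0.141 for both. Without AL SIRT1+/- replicate 1, Elovl3 was at 0.197.

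**Figure D1:**
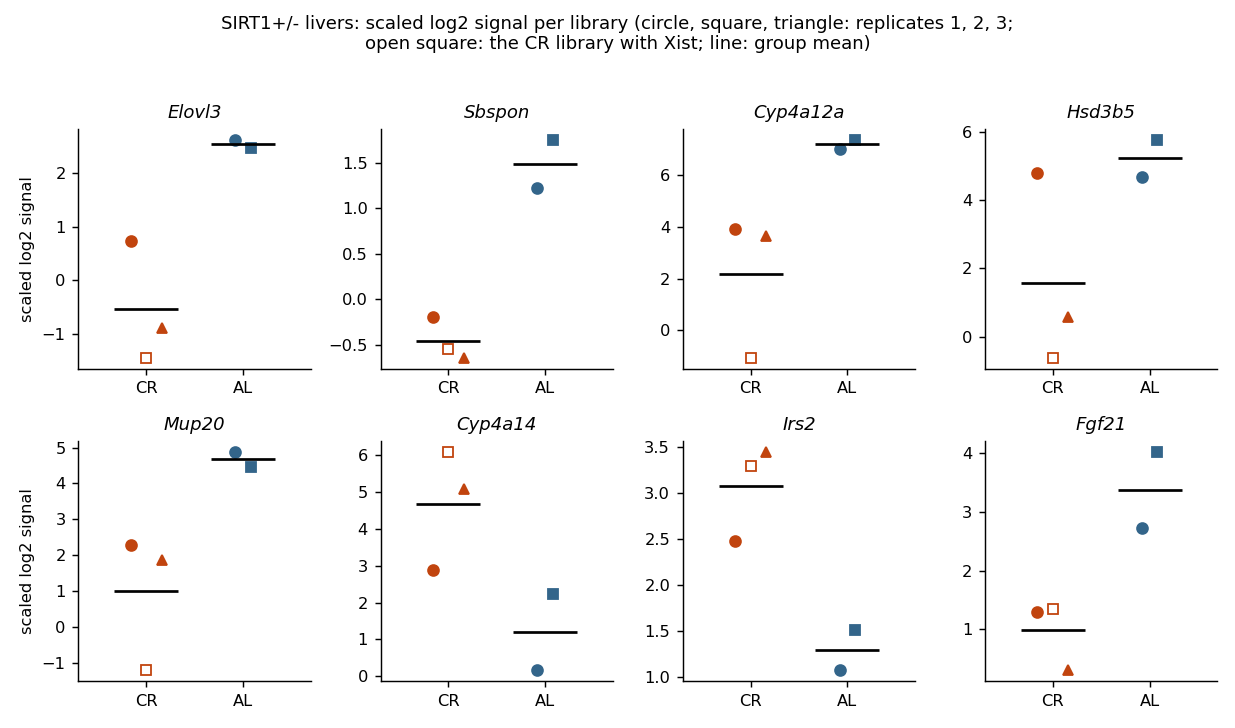
Scaled log2 signal (vertical axes) of 8 genes in the 3 CR and 2 AL SIRT1+/- livers, with 1 point per library, marker shapes for replicates and an open square for CR replicate 2. Elovl3 and Sbspon separate the diets with room between them (Elovl3 at most 0.73 on CR and at least 2.47 on AL), whereas Hsd3b5 overlaps because CR replicate 1 sits at 4.80.

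Male-biased liver genes were then taken as a group, since several of the largest differences belong to this set. Of 25 measured members, 14 were nominally lower (3.25% of all genes were) and 0 higher on CR in SIRT1+/- livers, 24 had a fitted difference below 0, and 19 had no overlap between CR and AL libraries in that direction (12.6% of all genes). The median difference was -1.48, against 0.028 over all genes. The list holds Sbspon and Cela1, which were put there with results of these data known. The median level of the set per library was 3.04, 1.29 and 2.25 in CR SIRT1+/- livers, against 4.11 and 4.46 in AL SIRT1+/- livers. Its lowest level was thus in CR replicate 2, the library with Xist, but the other CR livers were also below both AL livers. Without that library 12 members were lower and 1 was higher, with a median of -0.87, and with the doubtful library regrouped 7 were lower with a median of -1.12.

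The largest difference among the genes named here was that of Cyp4a12a, a hydroxylase of fatty acids and arachidonic acid made in male liver. Its values were 3.92, -1.07 and 3.63 in CR SIRT1+/- livers, against 7.01 and 7.39 in AL SIRT1+/- livers. CR replicate 2 was at background, while the other CR livers lay between it and the AL livers. The difference was -5.04 (SE 0.94, limma adjusted p = 0.137). Without CR SIRT1+/- replicate 2 it shrank to -3.42 with far less spread (limma adjusted p = 7.29e-06), and with the doubtful library regrouped it was -2.37 with an unadjusted p of 0.16. The near-identical Cyp4a12b, whose probe may share transcripts with it, was at -0.50, -1.40 and -0.31 in CR SIRT1+/- livers, against 1.32 and 2.61 in AL SIRT1+/- livers (difference -2.70, SE 0.45, limma adjusted p = 0.0649). It passed with quantile normalization and neqc (limma adjusted p = 0.0344 and 0.00821), and was at -1.63 with the doubtful library regrouped.

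Other members separated the diets in different degrees. Hsd3b5, a hydroxysteroid dehydrogenase of male mouse liver, was at 4.80, -0.62 and 0.57 in CR SIRT1+/- livers, against 4.69 and 5.78 in AL SIRT1+/- livers. CR replicate 1 matched the AL livers and the other CR livers were near background (difference -3.65, SE 0.99, limma adjusted p = 0.355). C6, a component of the terminal complement complex, was at 3.51, 0.98 and 1.99 in CR SIRT1+/- livers, against 4.11 and 4.63 in AL SIRT1+/- livers (-2.22, SE 0.50). Susd4, a regulator of complement, showed a similar order, with 2.00, -0.87 and 0.93 on CR, against 2.75 and 2.20 on AL (-1.79, SE 0.57). For both, CR replicate 1 was closest to the AL livers and CR replicate 2 the lowest. Without CR SIRT1+/- replicate 1, Hsd3b5 differed by -5.26 and C6 by -2.89, and both passed (limma adjusted p = 1.47e-05 and 0.0027). With the doubtful library regrouped, Hsd3b5 differed by -1.67, C6 by -1.21 and Susd4 by -0.94, and none of the 3 was nominally lower (unadjusted p = 0.23, 0.0935 and 0.172). Without CR SIRT1+/- replicate 2, Susd4 differed by -1.01. Cela1, a chymotrypsin-like elastase, varied little among the CR livers, at 3.10, 2.51 and 2.83, against 4.24 and 4.86 in AL SIRT1+/- livers (-1.74, SE 0.35, limma adjusted p = 0.183). Nudt7, a peroxisomal hydrolase of coenzyme A, was bright in every library, with all 3 CR values below both AL values (-1.10, SE 0.36, and -0.58 with the doubtful library regrouped, unadjusted p = 0.167). Cyp2u1, another fatty acid hydroxylase, was dim, and 1 CR and both AL livers passed detection (-1.35, SE 0.38). Alas2, the erythroid enzyme that starts heme synthesis, was at 3.16, 1.29 and 3.28 in CR SIRT1+/- livers, against 4.84 and 4.65 in AL SIRT1+/- livers (-2.17, SE 0.69, and -1.35 with the doubtful library regrouped, unadjusted p = 0.091). It is also an erythroid marker, and the summed raw signal of 5 such markers was 19869 to 30730 on CR, against 25311 to 31518 on AL. On the scaled data 4 of the 5 had a difference below 0, with a median of -0.72. The part of blood RNA in the difference of Alas2 was not tested.

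Major urinary proteins, lipocalins that carry pheromones in urine and are made in large amounts by male liver, ran lower on CR as well. All 5 measured members had differences below 0, with a median of -2.52. The CR and AL libraries of all 5 did not overlap, as in 12.6% of all genes in that direction. Of the 5, 3 were nominally lower (3.25% of all genes were). Mup20, which encodes the male pheromone darcin, was at 2.29, -1.21 and 1.87 in CR SIRT1+/- livers, against 4.88 and 4.46 in AL SIRT1+/- livers (-3.69, SE 0.84, limma adjusted p = 0.227). Mup21 was at 5.96, 3.84 and 4.77 on CR, against 8.19 and 8.54 on AL (-3.51, SE 1.13), and Mup5 at 3.19, 0.56 and 1.90, against 3.71 and 3.97 (-1.96, SE 0.78). Mup2, at 6.79, 3.07 and 6.62 on CR, against 7.97 and 8.06 on AL, owed much of its difference of -2.52 (SE 1.55) to CR replicate 2. The same library was the lowest for each of these genes, and without it the median of the 5 was -1.31 and 2 members were lower. Mup5 then differed by -1.30 and Mup2 by -1.31, and with the doubtful library regrouped Mup5 differed by -0.97, with no unadjusted p under 0.05 for either gene in these fits. When only libraries with a Y-linked transcript were fitted, the same SIRT1+/- livers gave the same median, and all 5 members were nominally lower. These genes are near-identical copies of one another, so a probe may read several of them and the assignment to single members is uncertain. In whole liver, fewer cells of a type and less RNA per cell cannot be told apart, which holds for every group below.

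Female-biased liver genes had a median difference of 1.21 over 18 measured members, with 4 nominally higher (5.08% of all genes were) and 0 lower on CR. The median level per library was 0.32, 2.84 and 0.28 in CR SIRT1+/- livers, against -0.32 and -0.65 in AL SIRT1+/- livers, and without CR replicate 2 the median difference was 0.17 with 3 higher. Cyp4a14, an omega-hydroxylase of fatty acids, was at 2.87, 6.10 and 5.08 in CR SIRT1+/- livers, against 0.17 and 2.24 in AL SIRT1+/- livers. All CR values lay above both AL values, though CR replicate 1 by little (difference 3.48, SE 0.91, limma adjusted p = 0.315). Without CR replicate 2 the difference was 2.77, and with the doubtful library regrouped 1.87 (unadjusted p = 0.12). Cyp2b9 and Cyp2b13, P450 enzymes of female liver, had fitted differences of 3.62 (SE 2.08) and 2.55 (SE 2.19) with little precision. Cyp2b13 was at -1.09, 5.51 and 0.51 in CR SIRT1+/- livers, against -0.39 and -1.42 in AL SIRT1+/- livers, so that only CR replicate 2 was far above the rest, and without it the difference was 0.62. Acot4, a peroxisomal thioesterase, overlapped between the diets, at 0.40, 3.65 and 2.48 on CR, against 0.63 and -1.11 on AL (2.42, SE 0.74). Slco1a4, a carrier of organic anions, did not, at 1.17, 2.39 and 2.99 on CR, against -0.25 and 0.41 on AL (2.11, SE 0.68). Cyp39a1, an oxysterol hydroxylase, was at 0.50, 1.31 and 0.06 on CR, against -0.76 and -0.35 on AL (1.18, SE 0.45, and 0.83 without CR replicate 2, unadjusted p = 0.0885).

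**Figure D2:**
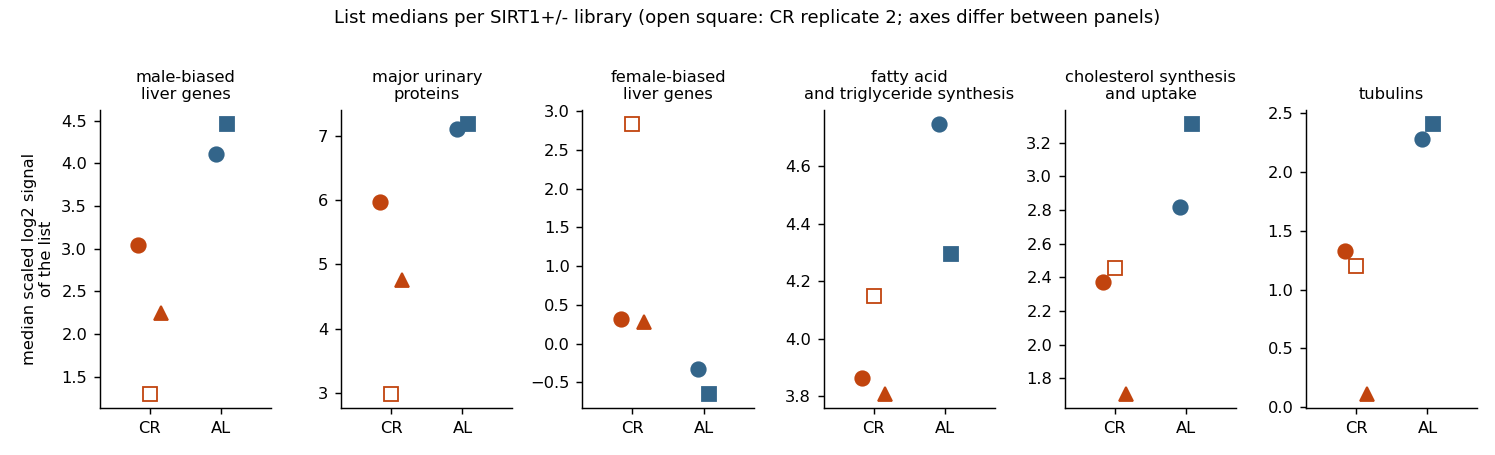
Median scaled log2 signal (vertical axis) over the measured members of 6 gene lists in each CR and AL SIRT1+/- liver, with 1 point per library. Male-biased genes are below the AL livers in all 3 CR livers (3.04, 1.29 and 2.25, against 4.11 and 4.46), whereas female-biased genes stand out mainly in CR replicate 2 (2.84).

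Components of growth hormone and insulin signalling were read next. Of 13 measured genes of the growth hormone and IGF1 axis 2 were nominally higher, where 5.08% of all genes were, and 0 lower, and 1 was higher both without CR replicate 2 and with the doubtful library regrouped. Cish, a feedback inhibitor of growth hormone receptor signalling, was at 3.87, 3.55 and 2.99 in CR SIRT1+/- livers, against 0.06 and 2.35 in AL SIRT1+/- livers. The low value of AL replicate 1 set much of its difference of 2.27 (SE 0.88). Igfbp2, an IGF-binding protein, was at 4.22, 4.96 and 5.17 on CR, against 3.41 and 3.43 on AL (1.36, SE 0.53). It differed by 1.27 without CR replicate 2 and by 0.74 with the doubtful library regrouped (unadjusted p = 0.0513 and 0.204). Among 12 genes of insulin signalling, 1 was higher and 0 were lower. This was Irs2, the adaptor that couples the insulin receptor to PI3-kinase, at 2.48, 3.29 and 3.45 in CR SIRT1+/- livers, against 1.08 and 1.51 in AL SIRT1+/- livers (1.78, SE 0.52, limma adjusted p = 0.382). The groups did not overlap, and the difference was 1.67 without CR replicate 2 and 1.11 with the doubtful library regrouped (unadjusted p = 0.0701).

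Enzymes that build fatty acids and triglycerides ran lower on CR with small differences. Of 24 measured members, 9 were nominally lower (3.25% of all genes were) and 0 higher (5.08% of all genes). A difference below 0 was found for 21 members, with a median of -0.55. Without CR replicate 2 the median was the same, -0.55, with 7 lower. Acly, which makes cytosolic acetyl-CoA from citrate, was at 6.07, 6.24 and 6.46 in CR SIRT1+/- livers, against 7.25 and 6.59 in AL SIRT1+/- livers (-0.67, SE 0.30). With quantile normalization and neqc it differed by -0.42 and -0.41 (limma unadjusted p = 0.23 and 0.238). Slc25a1, the carrier that exports this citrate from mitochondria, was tight in both groups, at 4.17, 4.13 and 4.22 on CR, against 4.58 and 4.73 on AL (-0.48, SE 0.20). Acss2, which makes acetyl-CoA from acetate, was at 5.48, 5.52 and 5.29 on CR, against 5.93 and 6.59 on AL (-0.83, SE 0.28). In all 3 genes each CR liver lay below both AL livers. Me1, malic enzyme, which supplies NADPH, was at 3.01, 1.75 and 1.59 on CR, against 3.06 and 3.35 on AL, with CR replicate 1 just below the AL range (-1.09, SE 0.37). The probe of Fasn, fatty acid synthase, was dim, at -0.26, -0.25 and -0.51 on CR, against 0.39 and -0.05 on AL (-0.51, SE 0.15). Agpat2 and Gpam, acyltransferases of glycerolipid synthesis, differed by -0.79 (SE 0.28) and -0.71 (SE 0.33). Without CR replicate 2, Acly, Slc25a1, Agpat2 and Gpam were not nominally lower (unadjusted p from 0.0525 to 0.0819), nor were Acly and Gpam with the doubtful library regrouped (0.0566 and 0.119). Mogat1, a monoacylglycerol acyltransferase, was not detected in the CR SIRT1+/- livers and was at least 1.10-fold lower there, a bound set by the lowest detected signal of each array. Pnpla5, a lipase-family member near background, differed by -0.82 (SE 0.30).

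Cholesterol synthesis genes shared a direction, with all 18 measured members below 0, against 54.9% of all genes with a difference above 0, and a median of -0.50. Nominally 5 were lower (3.25% of all genes were) and 0 higher, 3 without CR replicate 2 and 6 with the doubtful library regrouped. Hmgcs1, which makes HMG-CoA at the entry of the mevalonate pathway, was at 6.57, 5.50 and 6.24 in CR SIRT1+/- livers, against 7.03 and 7.91 in AL SIRT1+/- livers (-1.37, SE 0.49, limma adjusted p = 0.447). Mvd, mevalonate diphosphate decarboxylase, was at 0.85, 0.84 and -0.25 on CR, against 2.34 and 2.11 on AL (-1.74, SE 0.79). Fdps, which makes farnesyl diphosphate, was at 6.23, 5.44 and 5.30 on CR, against 6.51 and 6.99 on AL (-1.09, SE 0.51). In each, every CR liver lay below both AL livers. Without CR replicate 2, Hmgcs1 differed by -1.07 and Fdps by -0.99 (unadjusted p = 0.0563 and 0.108). The later sterol enzymes Cyp51, at 2.93, 2.75 and 2.41 on CR, against 3.86 and 4.11 on AL, and Nsdhl, at 1.81, 1.37 and 1.10, against 2.28 and 3.19, differed by -1.29 (SE 0.52) and -1.31 (SE 0.51). Sqle, squalene epoxidase, had the largest fitted difference of the list, -1.75, with a wide error (SE 0.85).

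Promoters of these genes are bound in general by SREBP2 together with the factor NF-Y, whose box is CCAAT. Windows from 250 bases before to 50 bases after the start were available in RefSeq (GRCm38.p6) for 15 of the 18 genes, 18 windows in all. CCAAT, read on both strands, was in 15 of the 18 windows and in at least 1 window of each of the 15 genes, against 37.4% of 32851 windows of the same length. The sterol core TCACNCCAC, read on both strands, was in 1 window, that of Hmgcs1, against 1.24% of all windows. The windows of Hmgcs1 and Mvd, mevalonate genes with values above, are shown because all members of the list shared a direction, with the CCAAT or ATTGG matches and the sterol core in capitals. Hmgcs1 lies at chr13:119690101-119690400 on the + strand and holds 4 CCAAT matches, and Mvd lies at chr8:122443373-122443672 on the - strand and holds 2. A match describes the letters and not a bound site.
Hmgcs1: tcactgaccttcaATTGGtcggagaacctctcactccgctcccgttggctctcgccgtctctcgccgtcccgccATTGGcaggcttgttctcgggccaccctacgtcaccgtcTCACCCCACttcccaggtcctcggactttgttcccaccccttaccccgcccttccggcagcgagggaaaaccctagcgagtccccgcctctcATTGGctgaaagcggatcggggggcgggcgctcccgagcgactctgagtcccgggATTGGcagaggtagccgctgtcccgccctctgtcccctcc
Mvd: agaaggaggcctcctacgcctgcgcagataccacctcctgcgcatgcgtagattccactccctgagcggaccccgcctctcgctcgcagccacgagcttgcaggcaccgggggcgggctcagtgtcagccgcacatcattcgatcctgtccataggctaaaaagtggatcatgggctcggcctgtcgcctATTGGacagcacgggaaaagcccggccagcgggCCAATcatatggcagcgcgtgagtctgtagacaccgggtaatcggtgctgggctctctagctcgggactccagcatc

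**Figure D3:**
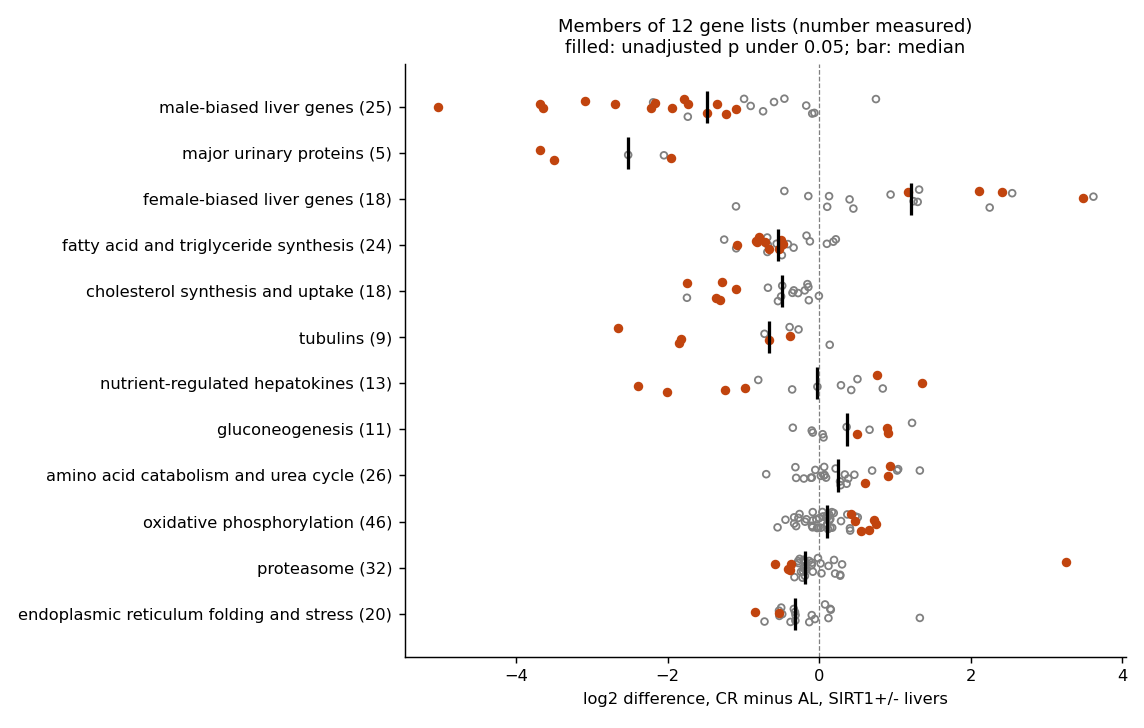
Difference of CR minus AL SIRT1+/- livers (horizontal axis, log2) for each measured member of 12 gene lists, with a bar at the median and filled points at an unadjusted p under 0.05. All 18 cholesterol synthesis genes lie left of 0 and 24 of 25 male-biased genes do, whereas oxidative phosphorylation lies close to 0 with a median of 0.10.

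Tubulins, the subunits of microtubules, included some of the largest differences outside the male-biased genes. Of 9 measured, 5 were nominally lower (3.25% of all genes were) and 0 higher on CR, with a median of -0.66. Without CR replicate 2, 4 were lower. Tubb2b was at 1.33, 1.20 and 0.11 in CR SIRT1+/- livers, against 4.05 and 3.04 in AL SIRT1+/- livers (-2.66, SE 0.56, limma adjusted p = 0.227). Tuba1b was at 4.94, 4.53 and 4.14 on CR, against 6.70 and 6.08 on AL (-1.85, SE 0.44), and Tubb4b at 3.04, 3.02 and 2.00, against 4.84 and 4.18 (-1.82, SE 0.52). Each CR liver was below both AL livers for these 3 genes, and the difference of Tubb2b was -2.82 without CR replicate 2. Tuba1a (-0.66, SE 0.27) and Tuba4a (-0.39, SE 0.15) were dimmer and differed less, and Tuba1a was not nominally lower without CR replicate 2 (unadjusted p = 0.0696) nor Tuba4a with the doubtful library regrouped (0.055). Tubulin sequences are alike, and a probe may read more than 1 member.

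Secreted factors of the fed and fasted liver split in direction. Of 13, 4 were nominally lower and 2 higher (3.25% and 5.08% of all genes were). Fgf21, the fasting and stress hormone of the liver, was at 1.29, 1.35 and 0.31 in CR SIRT1+/- livers, against 2.72 and 4.03 in AL SIRT1+/- livers (-2.39, SE 0.72, limma adjusted p = 0.394). Angptl8, a feeding-induced regulator of lipoprotein lipase, was at 3.23, 1.61 and 1.57 on CR, against 4.26 and 4.04 on AL (-2.01, SE 0.68). Inhbe and Inhbc, the activin subunits of hepatocytes, were at 1.99, 1.05 and 0.96 and at 1.16, 1.54 and 0.45 on CR, against 2.36 and 2.79 and 2.33 and 1.72 on AL. Neither overlapped between the diets, and the differences were -1.24 (SE 0.37) and -0.98 (SE 0.32). Rbp4, the plasma carrier of retinol, was higher in each CR liver, at 4.16, 4.58 and 4.01, against 3.27 and 3.69 on AL (0.77, SE 0.24), and Igfbp2 was the other of the 2. With the doubtful library regrouped, 1 of the list was lower and 1 higher. Fgf21 then differed by -1.48, Angptl8 by -1.30 and Inhbc by -0.52 (unadjusted p = 0.0699, 0.0839 and 0.141).

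Gluconeogenesis and the handling of amino acids ran slightly higher on CR. Of 11 gluconeogenic genes, 3 were nominally higher (5.08% of all genes were) and 0 lower around a median of 0.36. Without CR replicate 2, 1 was higher. Ppargc1a, a coactivator of gluconeogenic and mitochondrial genes that SIRT1 deacetylates, was at 1.89, 2.49 and 2.15 in CR SIRT1+/- livers, against 1.26 and 1.32 in AL SIRT1+/- livers (0.89, SE 0.37). Got1, cytosolic aspartate aminotransferase, was at 2.58, 3.06 and 2.25 on CR, against 1.75 and 1.69 on AL (0.91, SE 0.42). Slc37a4, the glucose-6-phosphate transporter, was at 1.32, 0.99 and 0.58 on CR, against 0.48 and 0.45 on AL (0.50, SE 0.18). The groups did not overlap for any of these genes. Neither Ppargc1a nor Got1 was nominally higher without CR replicate 2 (0.73 and 0.69, unadjusted p = 0.0925 and 0.152) or with the doubtful library regrouped (0.61 and 0.74, unadjusted p = 0.108 and 0.0754). Of 26 genes of amino acid catabolism and the urea cycle, 3 were higher and 0 lower, beside 5.08% and 3.25% of all genes. The median of the 26 was 0.25 (6 higher with the doubtful library regrouped). Slc7a2, a carrier of arginine and other cationic amino acids, had the smallest p among them, at 2.73, 3.06 and 3.32 on CR, against 2.24 and 1.97 on AL (0.93, SE 0.20, limma adjusted p = 0.227). Otc, the urea cycle enzyme ornithine transcarbamylase, differed by 0.60 (SE 0.24, and 0.52 without CR replicate 2, unadjusted p = 0.0669), and Got1 belongs to this list too.

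Most mitochondrial, proteasomal and chaperone genes were on neither side of the nominal limit. Over all genes, 5.08% were nominally higher and 3.25% lower, the shares to set beside each count in this paragraph. Of 46 subunits of oxidative phosphorylation, 6 were nominally higher and 0 lower, including Ndufb5 of complex I (0.72, SE 0.25) and Atp5a1 of ATP synthase (0.75, SE 0.29), and none reached it in either direction without CR replicate 2. These 2 then differed by 0.49 and 0.48. Of 32 proteasome genes, 4 were lower, namely Psmd2, Psmd4, Psmd7 and Psmd12 of the regulatory particle, with differences from -0.58 to -0.38, and 1 was higher, Psmd8 (3.26, described below). Without CR replicate 2, Psmd4 (-0.38) and Psmd12 (-0.33) were not nominally lower. Of 20 genes of folding and stress in the endoplasmic reticulum, 2 were lower, both of the pathway that degrades misfolded proteins: Derl2 (-0.53, SE 0.15) and the ubiquitin ligase Syvn1 (-0.85, SE 0.30). The mitochondrial chaperonins Hspe1 (0.66, SE 0.26) and Hspd1 (0.46, SE 0.18) were higher, whereas Bag3, a partner of HSP70, was lower (-1.02, SE 0.36). Without CR replicate 2, Hspe1 differed by 0.38 and Hspd1 by 0.28 (unadjusted p = 0.137 and 0.112), and the median of their list was -0.087 with 1 higher and 2 lower, against 0.14 with 3 higher and 1 lower. With the doubtful library regrouped, Bag3 differed by -0.70 (unadjusted p = 0.0671). Among 16 genes of NAD metabolism and the sirtuins 3 were higher and 0 lower. Nampt, which makes the NAD precursor nicotinamide mononucleotide, was at 0.21, 1.53 and 1.07 in CR SIRT1+/- livers, against -0.23 and 0.11 in AL SIRT1+/- livers (0.99, SE 0.35). Qprt and Nadsyn1, of the synthesis of NAD from tryptophan, differed by 0.67 (SE 0.29) and 0.36 (SE 0.17). Of the list, 1 was nominally higher without CR replicate 2, where Nampt differed by 0.70 and Nadsyn1 by 0.36 (unadjusted p = 0.0613 and 0.0778), and with the doubtful library regrouped Nadsyn1 differed by 0.22. Of 27 autophagy and mTOR genes, 3 were higher and 1 lower. Sesn1, an inhibitor of mTORC1, was at 2.14, 2.33 and 2.01 on CR, against 1.39 and 1.36 on AL (0.79, SE 0.21), and Mtor itself was at 1.60, 1.47 and 1.51, against 1.89 and 1.98 (-0.41, SE 0.13). Eif4ebp3, a repressor of cap-dependent translation, was not detected in AL SIRT1+/- livers and was at least 3.16-fold higher on CR. None of 14 glycolysis and glycogen genes, 21 acute-phase genes and 14 glucocorticoid-responsive genes was nominally higher or lower in SIRT1+/- livers, and 2 of the first list and 1 of the second were higher with the doubtful library regrouped.

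The largest positive difference was that of Bdh2, a short-chain dehydrogenase named for cytosolic 3-hydroxybutyrate. It was at 4.11, 2.92 and 3.16 in CR SIRT1+/- livers, against -1.14 and -1.09 in AL SIRT1+/- livers. All 3 CR livers were well above background and both AL livers undetected, so that Bdh2 was at least 16.0-fold higher on CR (fitted SE 1.15 on the log2 scale, limma adjusted p = 0.315). In the other genotypes the same gene spread widely within groups, from 1.32 to 3.80 in CR SIRT1+/+ and from -1.22 to 3.99 in AL SIRT1+/+ livers. Psmd8, of the proteasome's regulatory particle, was at 3.38, 3.08 and 4.28 in CR SIRT1+/- livers, against 0.31 and 0.32 in AL SIRT1+/- livers (3.26, SE 0.97, limma adjusted p = 0.39). Over all 18 libraries its values fell into a low band and a high band, and both bands held libraries of AL SIRT1+/+ (3.23, 0.31 and 2.95), of AL SIRT1-/- and of CR SIRT1+/+ livers (0.89, 3.85 and 3.85). Slc39a4, the zinc importer ZIP4, was at 2.98, 3.51 and 3.71 in CR SIRT1+/- livers, against 1.04 and 0.24 in AL SIRT1+/- livers (2.76, SE 0.63, limma adjusted p = 0.227). The fitted CR difference of Slc39a4 was -0.20 in SIRT1+/+ and 0.32 in SIRT1-/- livers.

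**Figure D4:**
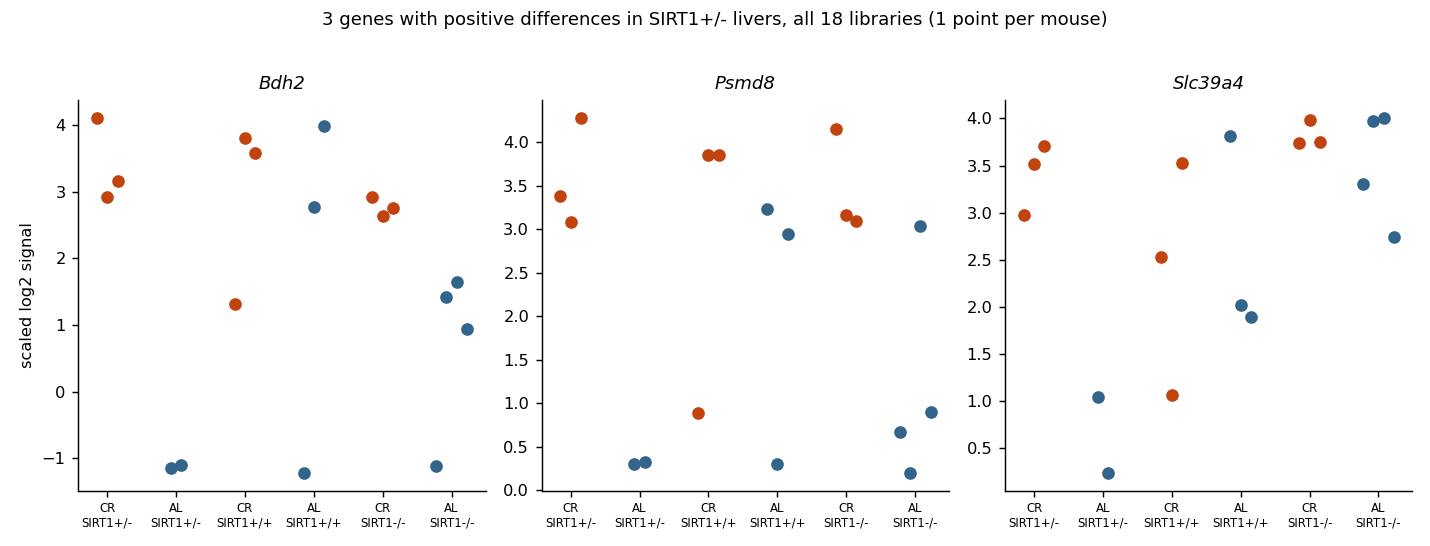
Scaled log2 signal (vertical axes) of Bdh2, Psmd8 and Slc39a4 in all 18 livers, grouped by genotype with CR left of AL and 1 point per library. In SIRT1+/- livers the diets are apart (Psmd8 at least 3.08 on CR and at most 0.32 on AL), but Bdh2 and Psmd8 also vary over this range within AL SIRT1+/+ livers.

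Other genes with large differences came from several classes. Hsd17b6, a hydroxysteroid dehydrogenase, was at 1.68, 2.74 and 2.14 in CR SIRT1+/- livers, against -0.78 and 0.42 in AL SIRT1+/- livers (2.36, SE 0.52, limma adjusted p = 0.227). Cyp3a11, a major drug-metabolizing P450, was at 5.37, 6.59 and 7.65 on CR, against 3.15 and 5.34 on AL, so that CR replicate 1 and AL replicate 2 nearly met (2.30, SE 0.63). Krt23, a keratin, was at 0.96, 3.56 and 3.20 on CR, against -0.25 and 0.19 on AL (2.61, SE 1.04). Lgals4, galectin 4, was at 1.36, 2.24 and 2.59 on CR, against -0.30 and -0.00 on AL (2.21, SE 0.58). For both, CR replicate 1 was the lowest of the CR livers and still above both AL livers, and Krt23 was not nominally higher without CR replicate 2 (2.12, unadjusted p = 0.0814). Gpcpd1, a glycerophosphocholine phosphodiesterase, was at 3.03, 3.51 and 3.28 on CR, against 1.53 and 1.78 on AL (1.62, SE 0.42). Foxq1, a forkhead transcription factor, differed by 1.54 (SE 0.65, and 1.16 with the doubtful library regrouped, unadjusted p = 0.0589), and Amer2, an APC-binding protein, was not detected on AL and was at least 2.23-fold higher on CR. On the lower side, Aqp8, a water channel of hepatocytes, was at 3.72, 2.11 and 3.30 in CR SIRT1+/- livers, against 5.33 and 5.09 in AL SIRT1+/- livers (-2.17, SE 0.57). Tsc22d1, a leucine zipper regulator of transcription, was at 2.00, 0.21 and 0.79 on CR, against 2.62 and 3.22 on AL (-1.92, SE 0.63). Cyp27a1, the sterol 27-hydroxylase of bile acid synthesis, was at 5.51, 5.55 and 6.04 on CR, against 6.25 and 6.66 on AL (-0.76, SE 0.27, and -0.54 with the doubtful library regrouped, unadjusted p = 0.0564). Of 16 genes of the circadian clock and its outputs, 1 was nominally higher (5.08% of all genes were) and 0 lower. The median of the 16 was 0.44, with 5 below 0. The 1 was the clock repressor Cry2, higher in each CR liver, at 0.71, 0.91 and 0.74, against 0.16 and 0.04 (0.69, SE 0.23). Of 15 cell cycle genes, 2 inhibitors of cyclin-dependent kinases were higher (5.08% of all genes were), Cdkn1c (0.90, SE 0.34) and Cdkn2c (0.84, SE 0.31). Cdkn1c differed by 0.67 without CR replicate 2 and by 0.59 with the doubtful library regrouped (unadjusted p = 0.0798 and 0.103).

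The CR effect in SIRT1+/- livers was then set against that in the other genotypes, which shared no libraries with it. No gene's CR effect differed between SIRT1+/- and SIRT1+/+ livers or between SIRT1+/- and SIRT1-/- livers at a limma adjusted p under 0.05, with 105 (1.17%) and 280 genes (3.13%) nominally different. Leaving out CR SIRT1+/+ replicate 3 turned the 105 into 393, and leaving out CR SIRT1+/- replicate 2 gave 177. With the doubtful library regrouped, the 105 and 280 were 213 and 421. At a limma adjusted p under 0.05, 2 genes differed from SIRT1+/+ livers without CR SIRT1+/- replicate 2. From SIRT1-/- livers, 5 differed at that limit without CR SIRT1+/- replicate 1. In that comparison 1 gene was called when CR SIRT1+/- replicate 2, or AL SIRT1-/- replicate 1 or 4, was left out alone. Within genotypes, limma called 2 genes from the 5 SIRT1+/- libraries, 59 (0.659%) from the 6 SIRT1+/+ and 13 (0.145%) from the 7 SIRT1-/- libraries. Leaving out 1 library moved the 59 to between 10 (without AL SIRT1+/+ replicate 1) and 108 (without AL SIRT1-/- replicate 4), and the 13 to between 0 (without CR SIRT1-/- replicate 3) and 59 (without AL SIRT1-/- replicate 1). With the doubtful library regrouped the 3 counts were 0, 12 and 39. Of the 746 genes that differed nominally in SIRT1+/- livers, 710 (95.2%) had the same direction in SIRT1+/+ livers, against 71.4% of all genes. In SIRT1-/- livers 627 (84%) had the same direction, against 66.8% of all genes. Of the 746, 363 were also nominally different in that direction in SIRT1+/+ livers and 279 in SIRT1-/- livers. Over all genes, 14.6% and 15% were nominally different there when both directions are counted. The fit shares 1 spread per gene over the genotypes, so these overlaps are not independent. In SIRT1+/- and SIRT1+/+ livers Xist was seen on CR only, whereas in SIRT1-/- livers it was seen on both diets. The part of sex in these overlaps and in the differences between genotypes was not tested. Pearson's r of the CR effects across the 8950 genes, which are not independent replicates, was 0.662 with SIRT1+/+ and 0.466 with SIRT1-/- livers. Of the 15 largest positive and 15 largest negative differences named for SIRT1+/- livers, 27 had the same direction in SIRT1+/+ and 22 in SIRT1-/- livers, with 19 and 9 of them nominally different. In all 3 genotypes 111 genes were nominally higher and 51 nominally lower on CR, including Slc7a2, whose differences were 0.93, 1.28 and 0.98 with 1, 2 and 0 SIRT1 alleles.

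**Figure D5:**
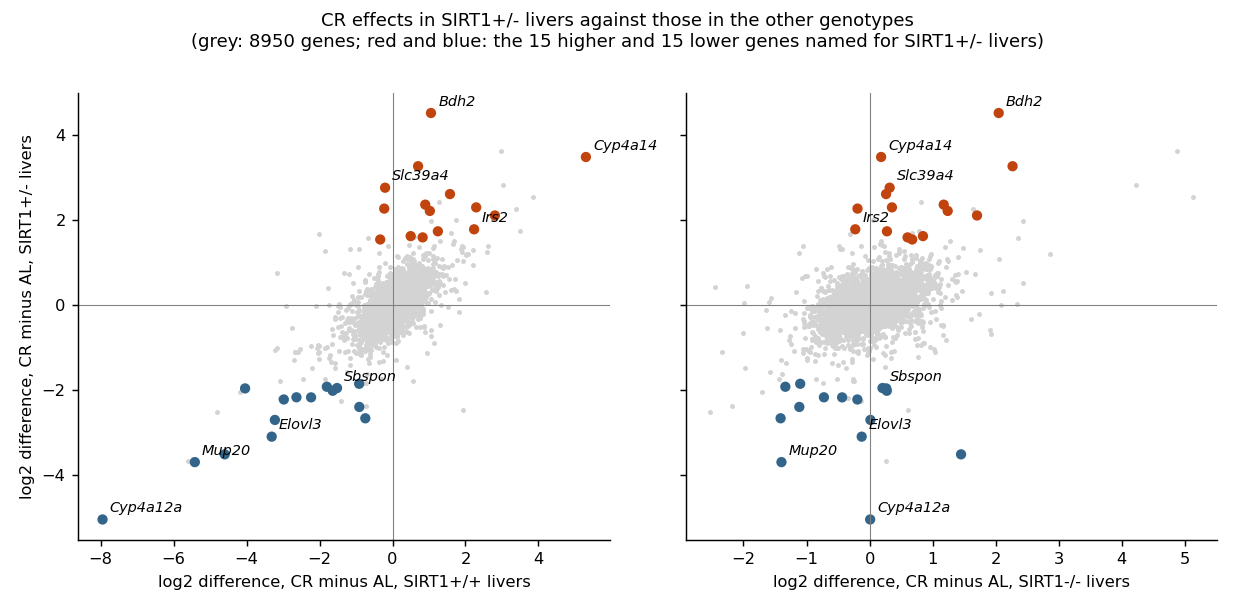
Difference of CR minus AL (log2) in SIRT1+/- livers against that in SIRT1+/+ (left) and SIRT1-/- livers (right), with 1 point per gene and the 30 named genes marked. Of the 30, 27 have the same sign in SIRT1+/+ and 22 in SIRT1-/- livers, and the male-biased Elovl3 and Sbspon are well below 0 in SIRT1+/+ and near 0 in SIRT1-/- livers.

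Gene groups were set side by side over the genotypes. For male-biased genes, the median CR effect of -1.48 in SIRT1+/- livers compares with -1.86 in SIRT1+/+ and -0.19 in SIRT1-/- livers. Among 25 members, the CR effect differed nominally for 2 between SIRT1+/- and SIRT1+/+ and for 11 between SIRT1+/- and SIRT1-/- livers. Over all genes, 1.17% and 3.13% did. Elovl3 differed by -3.31 (limma adjusted p = 0.00118) in SIRT1+/+ livers and was not detected in any SIRT1-/- library of either diet, and neither was Cyp4a12a. A lower level on CR could therefore not be measured there for either gene. Sbspon, with a CR effect of -1.95 in SIRT1+/- livers, had one of -1.52 in SIRT1+/+ and of 0.21 in SIRT1-/- livers (limma adjusted p = 0.0101, 0.00618 and 0.684). The difference between SIRT1+/- and SIRT1-/- livers was -2.15 (SE 0.33, limma adjusted p = 0.0731), the smallest p of that comparison. Xist was seen on CR in 1 SIRT1+/-, 2 SIRT1+/+ and 2 SIRT1-/- libraries and on AL in 2 SIRT1-/- libraries only. When only libraries with Y-linked signal were fitted, 11 male-biased members were nominally lower in SIRT1+/- livers with a median of -0.87. That fit left 1 CR library each in SIRT1+/+ and SIRT1-/- livers, so no counts are given for its comparisons between genotypes. Fatty acid and triglyceride synthesis had a median of -0.55 in SIRT1+/- livers, of -0.63 in SIRT1+/+ and of 0.02 in SIRT1-/- livers. Those of cholesterol synthesis were -0.50, -0.11 and -0.41 in the same order of genotypes, and for 0 of the 18 cholesterol genes did the CR effect differ nominally from either other genotype. Irs2, with a CR effect of 1.78 in SIRT1+/- livers, had one of 2.24 in SIRT1+/+ and of -0.23 in SIRT1-/- livers. Between SIRT1+/- and SIRT1+/+ livers, the smallest p belonged to Serpina12, the adipokine vaspin, with CR effects of 0.75 and -3.15 (difference 3.90, SE 0.78). Serpina12 is also on the male-biased list, as its only member above 0 in SIRT1+/- livers. The part of sex in its difference was not tested. Next came Slc39a4 (difference 2.96, SE 0.84), the mitochondrial peptidase Mipep (-1.98, SE 0.62), the bile acid exporter subunit Slc51b (-1.47, SE 0.46) and the protocadherin Pcdh17 (-0.93, SE 0.29).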

How the data were processed

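Liver RNA of 18 mice was read on 1 beadchip each. The authors deposited for every probe a BeadStudio 3.4.0 signal intensity that had not been background-subtracted, together with a detection p-value (the fraction of negative control beads as bright or brighter). They also deposited a score, the z-transformed log10 intensity, which was recomputed here within 5.0e-10. These z-scores were multiplied by the mean SD of the log2 signal over arrays (1.84), so that differences read as log2 values. The annotation gave 23978 of 25697 probes 1 symbol and left 1719 unnamed, so that genes found among the unnamed probes alone are not analysed here. A probe had to be detected (p under 0.05) in 2 or more libraries, and the brightest probe stood for its symbol, which gave 8950 genes.

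Groups were taken from the sample labels, and a replicate is a mouse. Group means were fitted with limma 3.58.1 in R 4.3.3 over all 18 libraries, with moderated variance (12 residual and 3.4 prior degrees of freedom). Tests were two-sided, with Benjamini-Hochberg adjustment and a threshold of 0.05. Where no library of a group detected a gene, its fold change is a bound, computed from the dimmest detected level. The genes named are those called, the 15 largest differences in each direction among genes with a small unadjusted p and no overlap of libraries (406 higher and 264 lower genes met this), members of gene lists, genes the study names and the 5 of smallest p in each comparison of genotypes. List members outside the 5 largest of their list were picked with their values in view. The genes and lists were chosen with earlier results of these data known. Promoter windows came from RefSeq (GRCm38.p6).

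Alternatives covered normalization (quantile, neqc with an offset of 16, the z-scores as deposited), probe choice (all probes, a stricter detection limit of 0.01, averaging the probes of a gene), the fit (SIRT1+/- libraries only, array quality weights, a replicate block, Y-linked transcripts as a covariate or as a filter on libraries, the regrouped library), the Z ratio rule with a limit of 1.5, and fits leaving out 1 library each. A trend in the variance prior and list counts without doubtful libraries were added once the data had been seen. Simulated libraries of the same design with 8950 genes gave calls for 76 of 100 genes with a true log2 difference of 1. For a difference of 2 they gave 93 of 100, and 9 calls were false. The noise was independent and of equal spread in all groups, so these shares check the fit and are not its power here. In the SIRT1+/- livers, 161 genes differed by at least 1 and 2 were called. Python 3.11.15 with pandas 2.3.3 and numpy 2.4.6 made the tables, and matplotlib 3.10.9 the figures.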

Additional observations from a re-analysis of the deposited data

Results flagged for a closer look

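Some genes moved in opposite directions on CR in SIRT1+/- and SIRT1-/- livers, with every CR library on one side of every AL library in both genotypes. The 3 among the genes of smallest p were Aldh1a1, Fn3krp and Imp4, and picking by that p favours opposite signs. In all, 35 of 8950 genes had this pattern against SIRT1-/- and 18 against SIRT1+/+ livers. Full separation is common with so few libraries: in SIRT1+/- livers alone it held for 18% of all genes upward and 12.6% downward. Whether the 35 and 18 exceed what random order would give was not tested.

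Aldh1a1, a retinaldehyde dehydrogenase that makes retinoic acid, was at 3.73, 3.22 and 3.47 in CR SIRT1+/- livers, against 4.38 and 4.44 in AL SIRT1+/- livers. In SIRT1-/- livers it was at 3.44, 3.12 and 3.56 on CR, against 2.46, 2.55, 2.46 and 3.03 on AL. The CR livers of both genotypes were thus alike and the AL livers apart. The CR effects were -0.94 in SIRT1+/- and 0.75 in SIRT1-/- livers, a difference of -1.68 (SE 0.29, limma adjusted p = 0.121). When AL SIRT1-/- replicate 1, whose label is in doubt, was moved to AL SIRT1+/-, the CR effect in SIRT1+/- livers was -0.29.

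Fn3krp, a kinase that repairs glycated proteins, had CR effects of -0.49 in SIRT1+/- and 0.66 in SIRT1-/- livers, a difference of -1.15 (SE 0.24, limma adjusted p = 0.388). Imp4, a factor of ribosomal RNA processing, had CR effects of 0.47 and -0.37, a difference of 0.84 (SE 0.17, limma adjusted p = 0.388). With AL SIRT1-/- replicate 1 moved to AL SIRT1+/-, the CR effects in SIRT1+/- livers were -0.25 for Fn3krp and 0.23 for Imp4 (unadjusted p = 0.247 and 0.172).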

How the results depend on the processing

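Of 96 genes checked, 93 kept the sign of their difference under all 31 settings, and 16 of 32 lists kept the sign of their median. Acly, Fdps, Nudt7, Got1, Syvn1 and Nadsyn1 were not nominally different with quantile normalization or with neqc (limma unadjusted p from 0.0509 to 0.238). With neqc alone, Acss2 and Mup5 were not either (0.0502 and 0.0561). The count of 2 genes called in SIRT1+/- livers was 4 with quantile normalization, neqc or a trend in the variance prior, 1 in the fit on SIRT1+/- libraries only, 19 with array quality weights (8 higher and 11 lower), 0 with the doubtful library regrouped and 370 by the Z ratio rule (222 higher and 148 lower). It ran from 0 to 6 in fits without 1 library each. The gene called in the fit on SIRT1+/- libraries only was Bdh2. Deviations of same-numbered CR and AL libraries from their group means had r = -0.0655 and -0.0617. The 2 AL libraries deviate from their mean in mirror image, so this cannot show whether replicate numbers pair libraries. With the number as a replicate block 5 genes were called. The 455 higher and 291 lower genes at an unadjusted p under 0.05 were 945 and 558 with array quality weights, the lower genes were 525 without a filter on dim probes, and without 1 library each they ran from 215 to 618 and from 137 to 365. Against SIRT1+/+ livers, the CR effect differed for 0 to 2 genes without 1 library. The libraries with a Y-linked transcript left 1 CR library in SIRT1+/+ livers, so no count is given for them. Against SIRT1-/- livers it differed for 2 with array quality weights, 2 with Y-linked transcripts as a covariate and 0 to 5 without 1 library. Reversed were Serpina12 (-0.0678 with the mean of all probes, and from -0.106 to 1.60 without 1 library each), Mipep (from -0.331 to 0.00054 without 1 library each) and Pcdh17 (-0.0102 with quantile normalization, -0.00626 with neqc, and from -0.173 to 0.278 without 1 library each, below 0 without AL or CR SIRT1+/- replicate 1). The cause was not tested. Dim probes such as those of Fasn, Alb and Pnpla5 lie near background, where a difference can be understated.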
